A study of Mus musculus with 20 samples.

Results

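The BTG/TOB antiproliferative family is described here through Tob1, Tob2, Btg1, Btg2 and Btg3, which are 5 of the 55401 genes in the count matrix. The members were taken by name as genes of the family, and the family was selected on the higher level of Tob2 in HK-treated mice, so the values of Tob2 between treatments are a description and carry no test. Of the 5 members, 4 passed the filter on low counts and were tested, and Btg3 did not pass. Btg4, the remaining mouse gene of the family and not a member, had 2 counts over all 20 mice and is not described further. RNA came from the gastrocnemius, the large calf muscle, of 20 mice aged 24 months of the inbred strain C57BL/6. Haenkenium (HK), a polyphenol-rich extract of the sage Salvia haenkei, was given to 10 of them in the drinking water at 0.5 mg per kg per day from the age of 20 months, prepared anew each week, and the other 10 drank water without it. Each treatment group held 5 males and 5 females, and the labels assign replicates 1 and 2 of each sex and treatment to experimental batch 1 (8 mice) and replicates 3 to 5 to batch 2 (12 mice). The libraries were made from total RNA after removal of ribosomal RNA and held between 13900180 and 30469644 counts per mouse, with a median of 17016047.

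BTG/TOB proteins share a domain near their amino terminus with which they bind the deadenylases Cnot7 and Cnot8 of the CCR4-NOT complex, and through it they promote the shortening of poly(A) tails and the decay of messenger RNA. Tob1 and Tob2 also bind the cytoplasmic poly(A)-binding protein through motifs that the shorter BTG proteins lack, and the family is known for slowing cell division and for keeping cells quiescent. Muscle fibres no longer divide, whereas the satellite cells, fibroblasts, vessel cells and immune cells between them can, and RNA of whole muscle holds all of these.

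Levels of different members were compared per length, as CPM (counts scaled to library size) divided by the kilobases of annotated exon. Tob1 (ENSMUSG00000037573, chromosome 11 from 94211454 to 94215495, plus strand) was at 74.4 to 155.2 CPM per kb with a median of 98.3. Tob2 (ENSMUSG00000048546, chromosome 15 from 81848272 to 81858796, minus strand) was at 6.35 to 43.0 CPM per kb with a median of 14.5. Tob1 was above each of the other members in 20 of 20 mice on this scale, and the median of its ratio to Tob2 within a mouse was 6.46. Btg2 (ENSMUSG00000020423, chromosome 1 from 134075170 to 134079120, minus strand) and Tob2 had an order that differed by batch, since Tob2 was the higher in 8 of 8 mice of batch 1 and in 4 of 12 of batch 2, and the ratio of Tob2 to Btg2 ran from 0.282 to 3.16. Btg1 (ENSMUSG00000036478, chromosome 10 from 96617006 to 96622809, plus strand) was below Tob1, Tob2 and Btg2 in all 20 mice. Btg3 (ENSMUSG00000022863, chromosome 16 from 78332637 to 78377192, minus strand) was the lowest member in every mouse, with 1 to 7 counts per mouse and 65 in all. These positions are those of GRCm38, and the exons of all annotated transcripts were joined, at 2288 bases for Tob1, 6664 for Tob2, 5276 for Btg1, 2743 for Btg2 and 4014 for Btg3. The length of the transcripts in use in this muscle was not measured. The longest annotated transcript of Tob2 has 4151 bases, and with that length Tob2 would lie closer to Tob1 and above Btg2 in more mice of batch 2.

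Of the summed level of the 5 members per length, Tob1 held 46.7% to 88.9% in a mouse, with a median of 76.7%. The share of Btg2 spread most relative to its median, from 3.24% to 39.7% with a median of 9.03%. Tob2 held a median of 10.5% and Btg1 of 1.08%. These medians pool batches that differed, as Tob1 was at 85.3% in batch 1 and 68.4% in batch 2, Tob2 at 8.92% and 12.7%, and Btg2 at 4.44% and 17.5%. The member messages of this muscle were thus mostly those of Tob1, and the 4 mice with the lowest Tob1 share had the 4 highest levels of Btg2. Btg2 is part of the sum, so a high level of Btg2 lowers the share of Tob1 by arithmetic, whatever the level of Tob1.

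**Figure D1:**
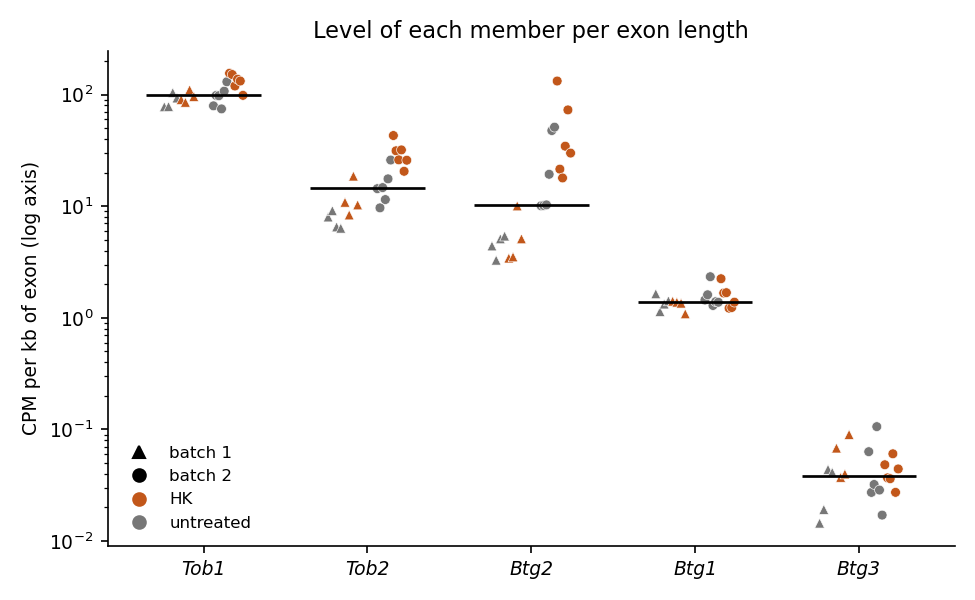
Level of each member in 20 mice in CPM per kb of exon on a log axis, with triangles for batch 1, circles for batch 2, orange for HK-treated and grey for untreated mice, and a line at the median of all mice. Tob1 lies highest and Btg3 lowest, and the points of Tob2 and Btg2 overlap.

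Reads of most members could be told from those of other annotated genes. No stretch of 50 bases of Tob1 or Btg2 occurred in a transcript of another gene, against 3.9% of such stretches for Tob2, shared with the antisense gene Gm49476 (5 counts in all), and 2.63% for Btg1, shared with Gm14519. For Btg3 30.5% were shared, with 538 genes, and the gene overlaps Cxadr on the other strand, which had 213 counts against the 65 of Btg3. The sources used here do not state whether strand was used in counting, so the few counts of Btg3 are uncertain.

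The bases before the annotated start are shown for Tob1 and Btg2, and lie in regions free of annotated exons. The levels of these members varied together over the 20 mice (r = 0.598), a relation described below that depended on single mice. Tob2 and Btg2 had a higher r of 0.633, and the window of Tob2 overlaps an annotated exon and is not printed. Whether the letters bear on these relations was not tested. The windows are the 250 bases before the RefSeq start on GRCm38.p6, chr11:94211204-94211453 on the plus strand and chr1:134079156-134079405 on the minus strand, each written 5′ to 3′ along its gene. Capitals mark matches, on either strand, to the cAMP response element TGACGTCA, to its core TGACG and to the TATA box TATAAA.
Tob1: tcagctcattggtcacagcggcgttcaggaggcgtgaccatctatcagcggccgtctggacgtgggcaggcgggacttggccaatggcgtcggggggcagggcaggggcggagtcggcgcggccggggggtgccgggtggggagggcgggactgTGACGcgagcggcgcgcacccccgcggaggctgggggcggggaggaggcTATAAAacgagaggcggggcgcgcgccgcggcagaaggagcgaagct
Btg2: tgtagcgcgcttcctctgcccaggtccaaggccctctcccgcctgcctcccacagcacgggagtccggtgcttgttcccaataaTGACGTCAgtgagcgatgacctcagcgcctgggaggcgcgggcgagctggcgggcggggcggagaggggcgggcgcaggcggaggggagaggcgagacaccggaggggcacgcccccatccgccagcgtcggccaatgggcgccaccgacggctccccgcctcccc
The full element TGACGTCA was found in 1.55% of 32851 windows of the same length, and Btg2 held it 166 bases before the start. Both matches of Btg2 to the core TGACG lie within that element. The core was found in 17.8% of windows, and Tob1 held it at 96 bases before the start and Btg1 at 187 and 103. The TATA box letters occurred in 12.4% of windows, at 47 bases before the start of Tob1 and 26 before that of Btg1. The E-box CACGTG (6.02% of windows) and the CArG box (1.47%) were not found in the windows of the 5 members, and Tob2 and Btg3 held none of these letters. All 5 members had a window in RefSeq. A match describes the letters and no binding was measured here.

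Between treatments, Tob2, which binds deadenylases and the poly(A)-binding protein, was the gene behind the choice of the family. In batch 1 its level was 53.3 and 60.7 CPM in the untreated males, 43.4 and 42.3 in the untreated females, 72.2 and 55.6 in the HK-treated males and 124 and 68.4 in the HK-treated females. In batch 2 it was 95.6, 64.4 and 97.8 CPM in the untreated males, 76.4, 117 and 173 in the untreated females, 286 (the highest of all), 209 and 173 in the HK-treated males and 213, 137 and 172 in the HK-treated females. Within batch 1, 3 of 4 HK-treated mice lay above every untreated mouse, and within batch 2, 4 of 6 did, while over all mice the groups overlapped, with medians of 154 and 70.4 CPM. The log2 fold change was 0.84 (standard error 0.175), with 0.67 within batch 1 and 0.95 within batch 2, 0.90 in males and 0.76 in females.

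Tob1, the close relative of Tob2, was at 170 to 298 CPM with a median of 218 in untreated mice and at 195 to 355 CPM with a median of 263 in HK-treated mice. Values above the untreated median were seen in 8 of 10 treated mice, with 4 above every untreated mouse, and the 4 highest were HK-treated mice of batch 2. Its log2 fold change was 0.31 (standard error 0.103, edgeR adjusted p = 0.799), with 0.11 within batch 1 and 0.44 within batch 2.

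Btg2, which is a known target of p53 and is quickly induced by growth factors and stress, spread most of all members. In batch 1 it was at 12.1 and 9.001 CPM in the untreated males, 13.98 and 14.8 in the untreated females, 9.39 and 9.63 in the HK-treated males and 27.6 and 13.97 in the HK-treated females. In batch 2 it was at 27.6, 27.8 and 28.2 CPM in the untreated males, 52.97, 131 and 140 in the untreated females, 363, 58.9 and 49.1 in the HK-treated males and 94.6, 200 and 82.0 in the HK-treated females. The treatment groups overlapped in each batch, and 6 of 10 treated mice exceeded the median of the untreated. On the log2 scale the difference of 0.91 (standard error 0.389, edgeR adjusted p = 0.799) was 0.22 within batch 1 and 1.35 within batch 2. It leaned on HK male 3, the mouse at 363 CPM, without which it was 0.40.

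Btg1, known for its part in the quiescence of lymphocytes and other resting cells, was at 6.001 to 12.3 CPM with a median of 7.42 in untreated mice and at 5.72 to 11.8 CPM with a median of 7.28 in HK-treated mice. Its values in the treatment groups covered nearly the same range, and the log2 fold change was -0.04 (standard error 0.0998, adjusted p = 0.952 in edgeR), with -0.09 within batch 1 and -0.0043 within batch 2. The 95% interval from -0.25 to 0.16 bounds the difference. Btg3 had 1 to 7 counts in untreated and 2 to 6 in HK-treated mice, and no difference was detectable at this depth (log2 fold change 0.30, standard error 0.446, adjusted p = 0.898 in edgeR without the filter).

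Of the 3 members with a test, 0 passed an adjusted p of 0.05 in edgeR, as did 0% of the 12923 genes tested (lowest adjusted p = 0.292), and limma voom also called 0 genes. DESeq2 called 7 genes, a count that includes Tob2, for which it is no test because the family was selected on that difference, and the others were Arrdc3, Slc25a25, Coq10b, Cebpb, Snai3 and Per1, which are named because of this count. At an unadjusted p under 0.05, Tob1 and Btg2 were higher, beside 2.75% of all genes tested (355) that were higher and 3.34% (431) that were lower. Without the filter on low counts, edgeR gave adjusted p = 2.17e-04 for Tob1 and 8.87e-32 for Btg2, with standard errors of 0.0671 and 0.0744. In that fit the spread of each gene was drawn fully to the common trend (infinite prior degrees of freedom, against 4.18 with the filter), so the spread of Btg2 between mice no longer entered its own error.

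Markers of cell types gave 0 calls between treatments in edgeR. At an unadjusted p under 0.05 there were 3 genes, beside 2.75% higher and 3.34% lower of all genes tested. These were 1 of 12 fibre genes and 1 of 10 endothelial genes, both lower, and 1 of 5 erythroid genes, higher. Log2 fold changes were negative for 10 of 10 endothelial genes (median -0.21), 9 of 9 of fibro-adipogenic progenitors (-0.22) and 10 of 11 of macrophages (-0.29). They were positive for 5 of 5 erythroid genes (0.47), 6 of 6 Schwann cell genes (0.32) and the lymphocyte gene tested, Ighm (0.39). Signs were mixed for fibre genes (8 positive, 4 negative), satellite cell genes (2 and 5) and adipocyte genes (4 and 3). Of all genes tested, 51% had a positive log2 fold change. Summed, the treatment groups overlapped for each, such as 126 to 362 CPM in HK-treated and 198 to 385 CPM in untreated mice for endothelial genes. The part of these cells in the values of the family was not tested.

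**Figure D2:**
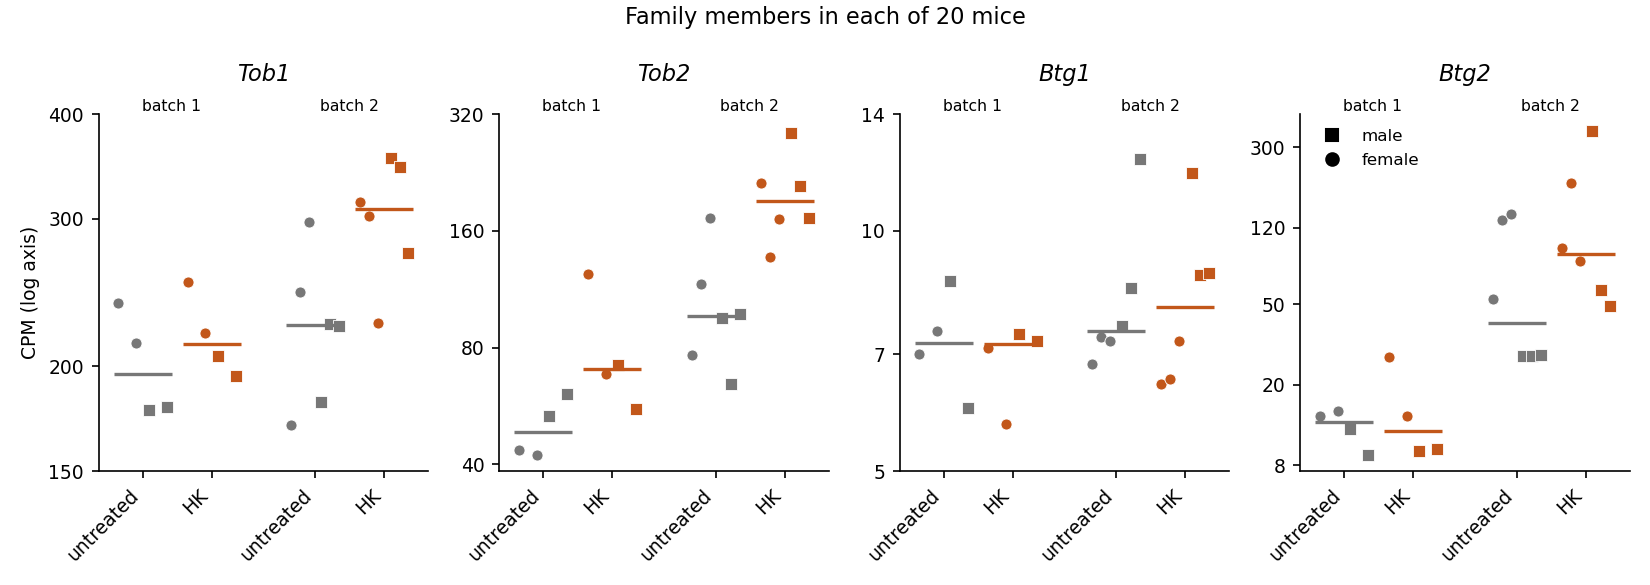
Tob1, Tob2, Btg1 and Btg2 in each of 20 mice in CPM on log axes, by batch and treatment, with squares for males, circles for females, grey for untreated and orange for HK-treated mice, and lines at group medians. Batch 2 stands above batch 1 for Btg2 in all 12 mice, and HK male 3 has the highest level of Btg2 (363 CPM) and of Tob2 (286 CPM).

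Between the sexes, Btg1 was the member called over all 20 mice, higher in males by 0.32 on the log2 scale (standard error 0.10, edgeR adjusted p = 0.0310). It was at 5.72 to 7.48 CPM in females with a median of 7.07, and at 6.001 to 12.3 CPM in males with a median of 8.57. Of 10 males, 9 lay above the female median and 7 above every female. In batch 2 all 6 males (7.61 to 12.3 CPM) were above all 6 females (6.44 to 7.36 CPM) and the log2 fold change was 0.46 (edgeR, adjusted p = 0.0478), and in batch 1 it was 0.10 (adjusted p = 0.712). Whether the difference depended on batch was not tested. In this comparison 9.52% of the genes tested (1230) were higher and 7.30% (944) lower in males, so 1 of 4 members called higher stands on few genes. The call was lost without any of 7 mice (untreated males 1 and 5, HK males 3 and 4, HK females 2, 3 and 4), with adjusted p from 0.05 to 0.0622, and in untreated mice alone (0.24, adjusted p = 0.431) and HK-treated mice alone (0.40, adjusted p = 0.112).

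The remaining members did not pass between the sexes in edgeR. Tob1 was at -0.10 on the log2 scale (adjusted p = 0.543), although in batch 1 all 4 males (178 to 206 CPM) were below all 4 females (213 to 252 CPM), with -0.30 (adjusted p = 0.0248) in that batch against 0.0041 in batch 2, and -0.16 to -0.06 with any mouse left out. Tob2 was at -0.06 (adjusted p = 0.850), with -0.11 in batch 1 and -0.08 in batch 2, and its sign turned without untreated male 4 (0.0055), untreated female 5 (0.048) or HK female 1 (0.033). Btg2 was at -0.68 (standard error 0.385, adjusted p = 0.244), with -0.81 in either batch. Its males lay below its females in batch 1 without overlap, and in batch 2 the 5 males other than HK male 3 lay below every female (52.97 to 200 CPM) except for HK male 4 at 58.9. Without HK male 3 the log2 fold change of Btg2 was -1.29 (adjusted p = 6.14e-04 in edgeR). In untreated mice alone it was -1.41 (edgeR adjusted p = 0.0346) and in HK-treated mice alone -0.21 (edgeR adjusted p = 0.885). Without the filter on low counts it was -0.69 (edgeR adjusted p = 1.34e-18). That is the unfiltered fit described above between treatments, in which the spread of Btg2 between mice no longer entered its own error. Of marker genes, 6 of 7 of adipocytes and 3 of 6 of Schwann cells were lower in males (edgeR), beside 7.30% of all genes, while of 11 macrophage genes 1 was called higher, beside 9.52% of all genes, and 6 were higher at an unadjusted p under 0.05, beside 16.4% (10 of 11 positive, median 0.50). Of 12 fibre genes 3 were higher and 2 lower. Values were negative for 10 of 10 endothelial genes (3 unadjusted, 0 called, median -0.24) and 17 of 22 immediate early genes (1 unadjusted, 0 called, median -0.20). These unadjusted counts stand beside 14.4% of all genes that were lower at that limit. Summed, the adipocyte genes had medians of 134 CPM in males and 215 in females, and the Schwann cell genes 78.5 and 127 CPM. Their part in the values of the family was not tested.

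The widest differences of the family, those of Btg2 and Tob2, lay between the experimental batches. Btg1 differed more between the sexes (0.32) than between batches (0.20). In edgeR, 3 of 4 members tested were higher in batch 2, beside 19.0% of all genes tested (2451) that were higher and 17.6% (2269) that were lower. Btg2 was at 9.001 to 27.6 CPM in the 8 mice of batch 1 and at 27.6 to 363 CPM in the 12 mice of batch 2, with medians of 13.02 and 70.5. All 12 values of batch 2 exceeded all 8 of batch 1, though the neighbouring mice, HK female 1 (27.58 CPM) and untreated male 3 (27.64 CPM), were almost equal. The log2 fold change was 2.83 (standard error 0.432, 7.12-fold, adjusted p = 9.56e-05), with 2.16 in untreated and 3.26 in HK-treated mice taken alone.

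Tob2 was at 42.3 to 124 CPM in batch 1 with a median of 58.1 and at 64.4 to 286 CPM in batch 2 with a median of 154. Within each treatment, all 6 mice of batch 2 were above all 4 of batch 1. The batch difference of Tob2, on which the choice of the family did not draw, was 1.19 on the log2 scale (standard error 0.185, 2.27-fold, adjusted p = 1.15e-04 in edgeR), with 1.04 in untreated and 1.31 in HK-treated mice alone. Tob1 was at 178 to 252 CPM in batch 1 and 170 to 355 CPM in batch 2, with medians of 210 and 259, so its ranges overlapped and 6 of 12 mice of batch 2 lay above every mouse of batch 1. The difference of 0.31 on the log2 scale (standard error 0.106, edgeR adjusted p = 0.0256) was lost in untreated mice alone (0.15, adjusted p = 0.466). The call was also lost without HK male 1, 2 or 4 or HK female 2 (adjusted p from 0.0506 to 0.0627). For Btg1 the log2 fold change was 0.20 (standard error 0.102, adjusted p = 0.126), and its batches overlapped.

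Batch 2 also held more RNA of several cell types other than fibres. In edgeR 10 of 11 macrophage genes, 9 of 9 genes of fibro-adipogenic progenitors, 5 of 5 erythroid genes, 5 of 10 endothelial genes, 4 of 7 satellite cell genes and 3 of 7 adipocyte genes were higher there, beside 19.0% of all genes tested. Of 6 Schwann cell genes, 0 were called (0 at an unadjusted p under 0.05, edgeR), 5 had a negative log2 fold change, and the summed medians were 121 CPM in batch 1 and 102 in batch 2. The summed macrophage markers, led by Lyz2, were at 22.9 to 78.2 CPM in batch 1 and 71.5 to 323 CPM in batch 2, and those of fibro-adipogenic progenitors, led by Dcn, at 194 to 471 and 345 to 1484 CPM. Medians moved from 71.4 to 147 CPM for erythroid genes (led by Hbb-bs), from 156 to 222 CPM for satellite cell genes (led by Itga7), from 274 to 296 CPM for endothelial genes (led by Flt1) and from 123 to 189 CPM for adipocyte genes (led by Fabp4). Fibre genes, led by Myh4 with a mean of 60200 CPM, had nearly equal sums (medians 190600 and 194200 CPM), with 2 of 12 higher and 1 lower. Ighm was the 1 lymphocyte gene of 12 to pass the filter, 0 of 7 neutrophil genes did, and no marker list held a gene at 0 in all mice. More cells of a type and more RNA per cell cannot be told apart in whole muscle, and the part of these cells in the batch difference of the family was not tested. The mice were sequenced in separate experiments according to the authors. Animals, handling, library preparation and sequencing cannot be told apart between the batches.

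Whether the treatment difference depended on sex or batch was tested as an interaction, which the choice of the family on the mean difference did not use. The difference of Tob2 between treatments was larger in males than in females by 0.14 on the log2 scale (standard error 0.358, adjusted p = 0.998 in edgeR) and larger in batch 2 than in batch 1 by 0.28 (standard error 0.362, adjusted p = 1). The intervals, from -0.61 to 0.88 and from -0.48 to 1.03, leave room for sizable differences in either direction. For Btg2 the interactions were 1.22 (standard error 0.739) with sex and 1.12 (standard error 0.774) with batch, for Tob1 0.30 and 0.33, and for Btg1 0.16 and 0.09. In edgeR 0 members passed, as did 0% of 13626 genes with sex (476 or 3.49% at an unadjusted p under 0.05) and 0% of 13800 genes with batch (416 or 3.01%), and DESeq2 also called 0 in both (463 and 395 unadjusted). No member had an unadjusted p under 0.05 in either. Without the filter on low counts edgeR gave adjusted p = 4.60e-14 with sex and 1.38e-10 with batch for Btg2. In the unfiltered fit between treatments the spread of Btg2 between mice did not enter its own error. Whether this held for the unfiltered interaction fits was not examined, so these p-values are no finding. No mouse, HK male 3 included, was left out of the interaction fits.

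**Figure D3:**
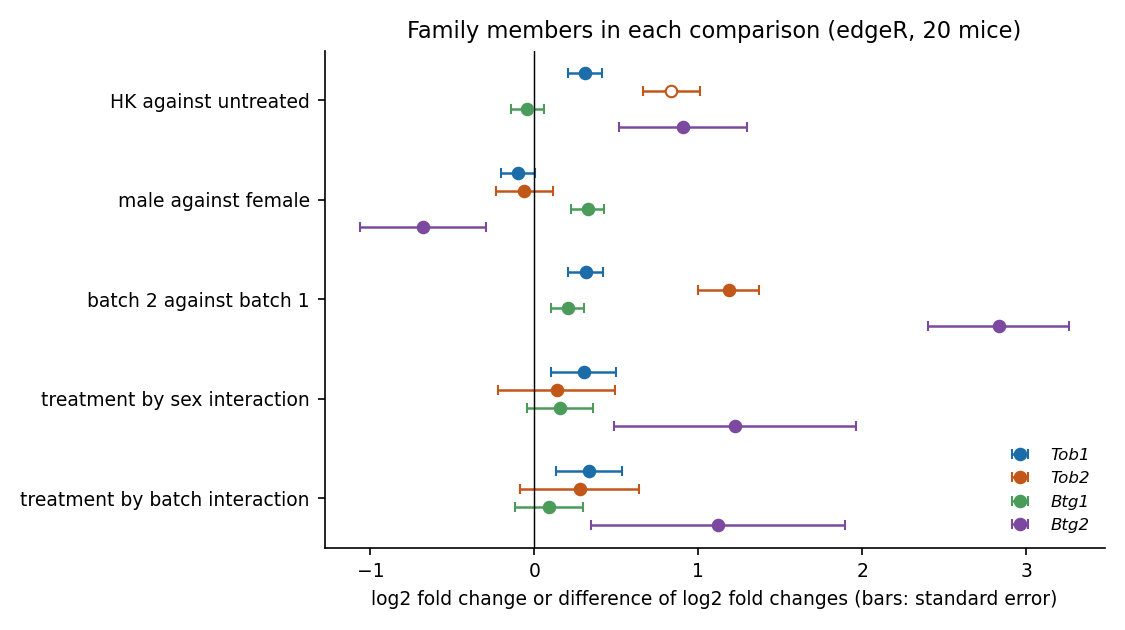
Log2 fold changes of Tob1, Tob2, Btg1 and Btg2, and differences of log2 fold changes for the interactions, from edgeR over 20 mice, with bars of 1 standard error. The open point is Tob2 between treatments, on which the family was chosen; the farthest point from 0 is Btg2 between batches (2.83).

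From mouse to mouse, Tob1, Tob2 and Btg2 varied together once batch, sex and treatment had been removed from log2 CPM. Tob2 and Btg2 had r = 0.633 (two-sided permutation test within batch, p = 0.0029, adjusted over 10 pairs 0.0290) and rho = 0.596 (p = 0.00648, adjusted 0.0316). Within batch 1 r was 0.790 and within batch 2 it was 0.622, and without untreated female 5 and HK male 3, the mice farthest from the median of Tob2, it was 0.416. The relation thus rests in part on those mice. Tob1 and Btg2 had r = 0.598 (p = 0.012, adjusted 0.0421) and rho = 0.645 (p = 0.00365, adjusted 0.0316), with 0.323 within batch 1 and 0.653 within batch 2. Tob1 and Tob2 had r = 0.566 (p = 0.0126, adjusted 0.0421) and rho = 0.558 (p = 0.0126, adjusted 0.0316), with 0.276 within batch 1 and 0.672 within batch 2. Without untreated female 3 and HK female 5, the farthest for Tob1, r was 0.560 with Btg2 and 0.533 with Tob2.

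These calls depended on single mice, which 20 mice and a limit near the values allow. Tob2 with Btg2 missed 0.05 without untreated female 3 or 4, HK male 2 or 3, or HK female 1 or 2 (adjusted p up to 0.0829). Tob1 with Tob2 missed it without any of 12 mice, namely untreated male 3, untreated females 3 to 5, HK males 1 to 5 and HK females 1 to 3 (up to 0.132). Tob1 with Btg2 did without any of 11, namely untreated male 3, untreated females 3 to 5, HK males 1, 2, 3 and 5 and HK females 1, 2 and 5 (up to 0.120). In all of these r stayed positive, at 0.478 or more.

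Btg1 did not pass with the other members. It had r = 0.413 with Tob1 (p = 0.077, adjusted 0.134; rho 0.394, p = 0.0912), 0.274 with Tob2 (p = 0.256; rho 0.316, p = 0.186) and 0.391 with Btg2 (p = 0.0941, adjusted 0.134; rho 0.325, p = 0.164). Within batches 1 and 2 these were 0.360 and 0.316, -0.020 and 0.440, and 0.523 and 0.497. The value with Btg2 was -0.0071 without HK male 3 and 0.605 (permutation test, adjusted p = 0.0441) without untreated male 5. The 4 pairs with Btg3 had r from -0.494 to -0.118 and rho down to -0.576 (with Btg2, adjusted p = 0.0316), and with 1 to 7 counts per mouse they are no finding.

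**Figure D4:**
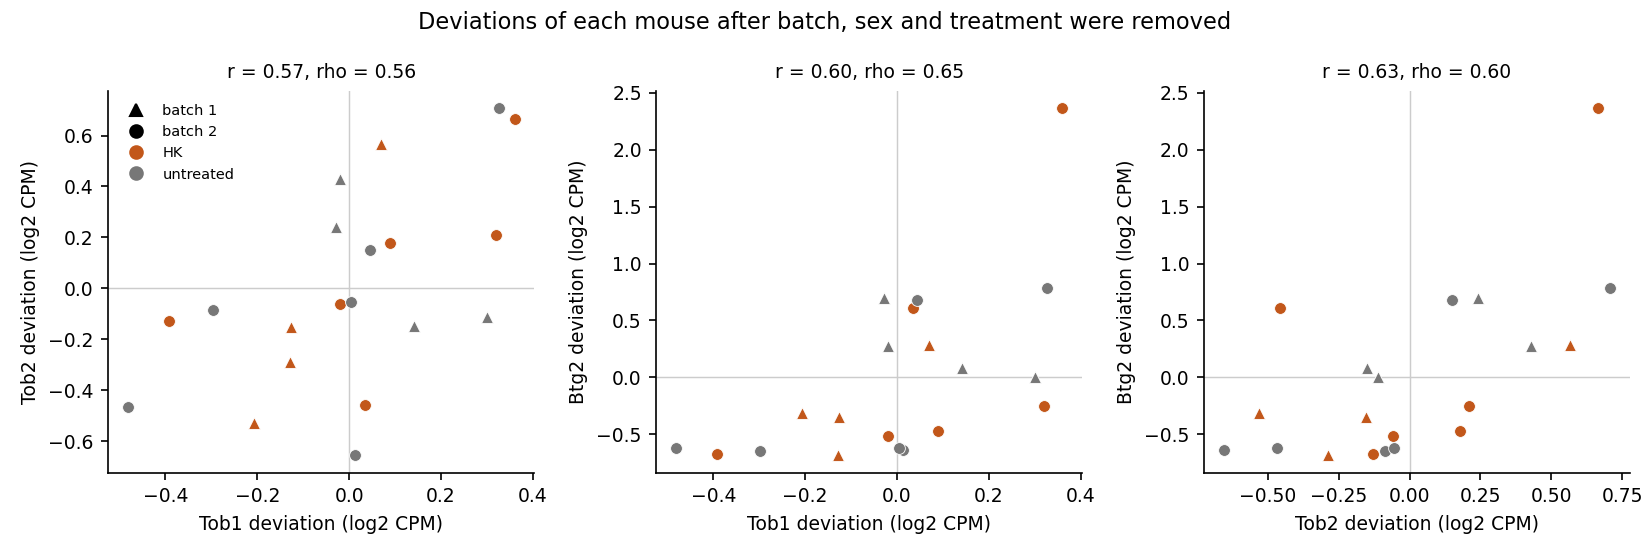
Deviations of 20 mice in log2 CPM after batch, sex and treatment were removed, for Tob1 and Tob2, Tob1 and Btg2, and Tob2 and Btg2, with triangles for batch 1, circles for batch 2, orange for HK-treated and grey for untreated mice. Pearson's r is 0.57, 0.60 and 0.63, and HK male 3 has the highest deviation of Btg2 (2.37).

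Among 8884 genes with a mean of at least 5 CPM, the deviations most like those of Tob2 over the 20 mice belonged to Pim3, a serine/threonine kinase (r = 0.845), and Zfp560, a zinc finger gene (0.824). Then came Slc25a25, a mitochondrial carrier (0.815), Irf2bp2, a transcriptional corepressor (0.814), Ddit4, an inhibitor of mTOR signalling (0.811), and Arrdc2, an alpha-arrestin (0.795). Within batches their r was 0.610 to 0.922 in batch 1 and 0.799 to 0.944 in batch 2. The genes were picked by r over these same mice, so the values within batches are no separate support. Without the mice farthest from the median of Tob2, r was 0.673 to 0.815. Btg2 was rank 66 for Tob2, with 0.732% of the genes more alike, and Tob1 was rank 145. For Btg2 the closest were Zbtb10 (0.908), the early response gene Apold1 (0.908) and the nuclear receptor Nr4a2 (0.891), with 0.518 to 0.715 in batch 1. Without the mice farthest from the median of Btg2 these fell to 0.680, 0.774 and 0.750.

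For Tob1 they were Fbp2, the muscle fructose-bisphosphatase (0.784), Cbfb, the partner of Runx factors (0.778), and Rictor, a subunit of an mTOR complex (0.777). Of these, Rictor kept its value in batch 1 (0.798), whereas Fbp2 and Cbfb were at -0.201 and 0.039 there. Without the mice farthest from the median of Tob1, Fbp2, Cbfb and Rictor were at 0.657, 0.559 and 0.731. For Btg1 the closest were the purine receptor gene P2ry1 (0.756), Socs4 (0.743) and Fem1b (0.732). Once untreated male 5 and HK male 3, the mice farthest from the median of Btg1, were left out, these were 0.641, 0.519 and 0.369. These values rank genes by likeness and were not tested.

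Among the partners through which the family acts on messenger RNA, no gene was called between treatments. Of the 10 subunits of CCR4-NOT, 0 were called in edgeR between treatments (0 also at an unadjusted p under 0.05, and 0 by DESeq2 and voom), with a median log2 fold change of 0.05 beside 0.0024 over all genes tested. The deadenylases that the family binds were at 0.07 (Cnot7, standard error 0.0491; Cnot8, standard error 0.0417). The 9 other deadenylases and poly(A)-binding factors had a median of 0.05 and the 11 decapping and decay factors 0.04, with 0 called in either. Among them 1 was lower at an unadjusted p under 0.05 in edgeR, Parn at -0.14, beside 3.34% of all genes tested. Of the 14 RNA-binding partners tested of 15, which recruit deadenylases to messages, 0 were called. At an unadjusted p under 0.05 in edgeR 2 were higher, Tnrc6c (0.16) and Tnrc6b (0.16), beside 2.75% of all genes tested. The median of the 14 was 0.08, and the widest of the 3 with the lowest p was Zfp36 at 0.76 (standard error 0.393, edgeR adjusted p = 0.801).

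Between batches, shares of called genes stand beside 19.0% higher and 17.6% lower over all genes tested. Of the 10 CCR4-NOT subunits, 1 was higher (Cnot3, 0.28, adjusted p = 0.0109 in edgeR) and 5 were lower in batch 2, with a median of -0.13 beside 0.01 over all genes tested. Cnot7 was lower by -0.50 (standard error 0.0495, adjusted p = 9.62e-07) and the scaffold Cnot1 by -0.23 (adjusted p = 0.0197). The summed level of the 10 subunits was at 344 to 359 CPM in batch 1 and 269 to 340 CPM in batch 2, so the batches did not overlap on this sum. Of the 9 other deadenylases and poly(A)-binding factors 1 was higher and 4 lower, among them Paip1 (-0.29) and Paip2b (-0.32), and of the 11 decapping and decay factors 3 were lower, namely the helicase Ddx6 (-0.28), the exonuclease Xrn1 (-0.28) and Dcp2 (-0.28). Of the 14 RNA-binding partners 3 (21.4%) were higher and 6 lower, with Pum2 at -0.43 and Cpeb3 at -0.38. Zfp36, which binds AU-rich messages and also counts among the immediate early genes, was at 2.65 (standard error 0.428, adjusted p = 1.49e-04 in edgeR).

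Between the sexes 0 of 10 CCR4-NOT subunits and 0 of 11 decapping factors were called in edgeR. At an unadjusted p under 0.05, 1 subunit was higher and 3 were lower in males, and 0 decapping factors passed. Of all genes tested, 16.4% were higher and 14.4% lower at that limit. Of the 9 other deadenylases and poly(A)-binding factors, Pabpc1 (0.34, adjusted p = 6.32e-04) and Pabpc4 (0.21, adjusted p = 0.0198) were higher in males, beside 9.52% higher and 7.30% lower of all genes tested. Of the 14 RNA-binding partners 3 were higher and 3 lower in males, with Cpeb1 at 0.45 (adjusted p = 0.00416), Rc3h2 at 0.24 and Tnrc6c at -0.22.

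Signalling genes tied to the family included SMAD factors, their targets and the receptor Erbb2, and 12 of 14 were tested. Between treatments 0 were called in edgeR (0 unadjusted) and the median was 0.04, with Id1 at 0.43 (standard error 0.207, adjusted p = 0.799). Between batches 2 were higher, Id1 (1.59, adjusted p = 4.26e-05) and Id3 (0.86, adjusted p = 2.92e-04), and 2 were lower, Smad4 among them (-0.33), so the share of 12 called in either direction (16.7%) was not above that of all genes tested (19.0% and 17.6%). Between the sexes 0 were called in edgeR, with Smad7 at -0.38 (adjusted p = 0.0571). At an unadjusted p under 0.05, 2 were lower, beside 14.4% of all genes tested.

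Btg2 is a p53 target, and of 15 further p53 genes tested of 16, 0 were called between treatments in edgeR, with a median of 0.03. At an unadjusted p under 0.05, 2 were higher (Trp53inp1 at 0.49 and Gadd45a at 0.34), beside 2.75% of all genes tested. Between batches 4 of 15 were higher and 2 lower, beside 19.0% and 17.6% of all genes, with a median of 0.14, and Cdkn1a, the cell cycle inhibitor p21, was at 0.91 (standard error 0.285, adjusted p = 0.0170). Mdm2, another direct target, was at -0.16 (adjusted p = 0.0203). Between the sexes, beside 9.52% and 7.30% of all genes, 2 of 15 were higher in males, Phlda3 at 0.58 (adjusted p = 2.09e-06) among them, and 4 were lower, among them Sesn1 (-1.12, adjusted p = 7.10e-06) and Gadd45a (-0.58, adjusted p = 0.0185). On the same scale the batch difference was 2.83 for Btg2 and 0.41 for Sesn1. The part of p53 in the values of Btg2 was not tested.

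Btg2 also belongs to the genes induced within minutes of a stimulus, and all 22 immediate early genes tested of 24 were higher in batch 2 (edgeR, median 2.16). Between treatments 0 of the 22 were called, and 11 were higher at an unadjusted p under 0.05 in edgeR, beside 2.75% of all genes. The log2 fold change was positive for 21 of 22 (median 0.75), beside 51% of all genes tested. Their summed level was at 301 to 520 CPM in batch 1 and 468 to 3861 CPM in batch 2, with HK male 3, the mouse with the highest Btg2 and Tob2, at 3861 CPM. The part of such an early response in the values of Btg2 and Tob2 was not tested. Of 18 core clock genes, 4 were higher and 8 lower in batch 2, beside 19.0% and 17.6% of all genes, among them Nfil3 (2.36) and Dbp (-1.69), and between treatments 0 were called in edgeR (3 higher unadjusted, beside 2.75%), with Per1 at 0.99 (adjusted p = 0.451).

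Genes of proliferation, the process that the family is known to restrain, were low, and 16 of 22 passed the filter. Between treatments 0 were called in edgeR and the median was -0.07. At an unadjusted p under 0.05, 1 was lower (Cdk2, -0.37), beside 3.34% of all genes tested. In batch 2, where Tob1, Tob2 and Btg2 were higher, 6 of the 16 (37.5%, beside 19.0% of all genes) were higher and 0 lower, beside 17.6% (0 at an unadjusted p under 0.05, edgeR; lists were not counted by other tools), among them Ccnd3 (0.82, adjusted p = 2.46e-05), Top2a (2.40) and Mki67 (2.44). Mki67 and Top2a were at means of 1.55 and 1.36 CPM. Between the sexes 0 were called (2 higher and 1 lower unadjusted, beside 16.4% and 14.4% of all genes tested).

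**Figure D5:**
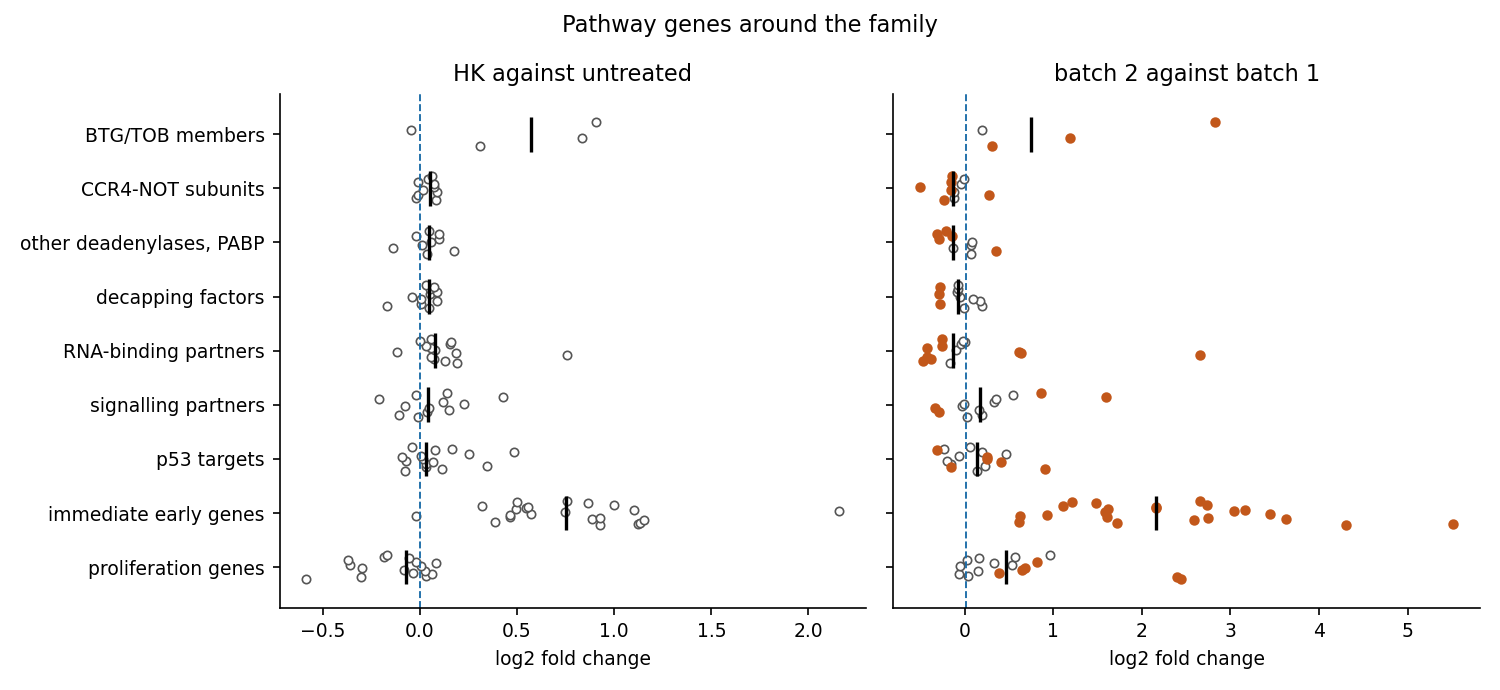
Log2 fold changes of the genes tested in each list between treatments (left) and batches (right), with filled points for an adjusted p under 0.05 in edgeR, open points for others, black lines at list medians and a dashed line at the median of all genes tested. Between treatments 0 points are filled; between batches the immediate early genes are all higher (median 2.16) and the CCR4-NOT subunits mostly lower (median -0.13).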

How the data were processed

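Gastrocnemius RNA of 20 mice was analysed from the raw counts per gene that the authors deposited, made with STAR 2.6.1c in two-pass mode on GRCm38.p6 and the GENCODE M25 annotation after FastQC; no source used here names the counting tool or its use of strand. Of 55401 genes, 30096 had a count. Names, positions and exon lengths came from GENCODE M21 (55141 identifiers matched, 260 did not), and promoter windows from RefSeq.

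Counts were tested in R 4.3.3 with edgeR 4.0.16 (quasi-likelihood test, TMM, filterByExpr on the treatment groups, batch, sex and treatment as terms, Benjamini-Hochberg over 12923 genes). Interactions were fitted in separate models. CPM used TMM library sizes, and correlations used log2 CPM with a prior count of 2 and 100000 permutations within batch. Other work used Python 3.11.15 with numpy 2.4.6, pandas 2.3.3, scipy 1.17.1 and matplotlib 3.10.9. The fit was tested on simulated data. Between mice alike in treatment, sex and batch, chi-square over degrees of freedom was 8.06 to 49.6, above the 1 of sampling alone, so each mouse was 1 replicate. The total count per mouse, 13900180 or more, left members other than Btg3 with 78 counts or more in each mouse.

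Named genes were all members, up to 3 genes with the lowest p of each list and comparison, and the 3 genes (6 for Tob2) most like each member in their deviations. The members and lists were chosen with earlier results of these data known. Alternatives were DESeq2 size factors, no filter, DESeq2 1.42.0, limma 3.58.1 voom, no covariates, a replicate block, each batch, sex or treatment alone, a variance stabilizing transformation and each mouse left out. The filter on the whole design, and Btg3 without a filter in DESeq2, were added after seeing the data. DESeq2 gave no p for Btg2.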

Additional observations from a re-analysis of the deposited data

Results flagged for a closer look

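A mouse far from the others of its group was looked for in 50 groups of 4 to 10 mice, and 5 groups were flagged. Btg1 of untreated male 5 was flagged both among untreated mice and among untreated mice of batch 2. The groups shared mice, so the 1 in 20 that chance gives for separate groups is only a rough guide. Untreated male 5 had 12.31 CPM of Btg1, against 6.001 to 8.65 in the other untreated mice and 6.803 to 8.485 in the other untreated mice of batch 2. HK male 3 had 11.81 CPM of Btg1, against 5.722 to 8.86 in the other HK-treated mice. HK male 3 also had 362.6 CPM of Btg2, against 9.394 to 58.9 in the other HK-treated males, and the highest level of Tob1 (355.2 CPM) and of Tob2 (286.2 CPM). Untreated female 3 had 0.4252 CPM of Btg3, which is 7 counts, against 0.05805 to 0.2536 in the other untreated mice.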

How the results depend on the processing

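Under DESeq2 size factors, limma voom and the filter on the whole design (added after seeing the data), each member kept its direction, and each with a test its side of 0.05, in the comparisons of treatments, sexes and batches. So did DESeq2, which gave no p for Btg2. Tob2 between treatments carries no test. Without the filter on low counts, calls between treatments went from 0 to 502 (436 of them past the filter), and those of the interactions with sex and batch to 314 and 225. DESeq2 called 7 between treatments. Leaving out each mouse gave 0 to 1 call (Snai3, without HK female 1). Calls between the sexes were 452 in untreated and 630 in HK-treated mice, 1266 in batch 1 and 843 in batch 2, and calls between batches 2034 in untreated and 1428 in HK-treated mice, each from fewer mice than the 2174 and 4720 over all.

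Reversed signs were those of Btg1 between treatments in males alone (0.033) and without untreated male 5 (0.018), where leaving out each mouse gave -0.10 to 0.018, of Tob1 between the sexes in HK-treated mice (0.033) and in batch 2 (0.0041), and of Tob2 between the sexes (-0.16 to 0.048 over each mouse left out). None of these was called, and the cause was not tested.

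Leaving out each mouse, r was 0.478 to 0.632 for Tob1 and Tob2, 0.507 to 0.673 for Tob1 and Btg2, 0.530 to 0.741 for Tob2 and Btg2, -0.0071 to 0.605 for Btg1 and Btg2, 0.0761 to 0.508 for Tob2 and Btg1, 0.270 to 0.485 for Tob1 and Btg1, -0.597 to -0.252 for Tob1 and Btg3, -0.266 to 0.013 for Btg1 and Btg3 and -0.804 to -0.372 for Btg2 and Btg3. The variance stabilizing transformation changed no call.

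With a replicate block in place of batch and sex, calls between treatments remained 0 in edgeR (778 at an unadjusted p under 0.05), with Tob1 at 0.31, Btg1 at -0.03 and Btg2 at 0.66. The deviations of mice of the same sex and number had r from -0.36 to 0.279. With few mice per sex and batch to compare, these values cannot decide whether the numbers pair mice. The labels do not say what the numbers stand for.

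Depth limits Btg3, at 1 to 7 counts per mouse, and in DESeq2 without a filter its difference between treatments was 0.31 (standard error 0.455).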
